A study of Mus musculus with 15 samples.

Results

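The oncofetal genes Hmga1, Hmga2, Lin28a, Lin28b, Igf2bp1, Igf2bp2 and Igf2bp3 were examined for H3K27ac, a histone acetylation found at active promoters and enhancers. The material was a tumor from a mouse model of fusion-positive rhabdomyosarcoma (FP-RMS). Peaks were taken where they overlapped the RefSeq span of a gene or 50 kb either side, and 332 of the 122375 peaks in the list met this rule. Each peak was called a promoter peak within 2 kb of a start site, a gene body peak elsewhere in the span, or a flank peak. The genes were chosen from the measured peaks of this same list, in which the dense cluster at Hmga2 was already known. Counts at the 7 genes are therefore descriptions, and no test was run on them.

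The series compared tumors of MCP mice with those of TCP mice. MCP mice carry Myf6-Cre together with both copies of Cdkn2a floxed, written Cdkn2a(Flox/Flox), the fusion allele at both copies of Pax3, written Pax(3P3F/P3F), and the reporter R26-tdTom. TCP mice carry Tek-Cre in place of Myf6-Cre. In MCP mice the Cre driver acts in myogenic cells. Cre there turns on PAX3-FOXO1, removes Cdkn2a and marks the cells with tdTomato. Live cells sorted from dissociated tumors were profiled by CUT&RUN, in which a nuclease tethered to an antibody releases the DNA beside the mark. Of 15 libraries, 6 MCP and 3 TCP libraries were made for H3K27ac, and 3 MCP and 3 TCP libraries with IgG as background. The library analyzed was MCP H3K27ac replicate 5. It was a single library, so a value has no replicate error and no tumor types were compared. The other libraries were not analysed here, and neither the tumor number nor the age of the mouse is given in the labels of this library. The paper reports several tumor types in MCP mice, FP-RMS among them, and treats the profiled tumors as FP-RMS.

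These genes are called oncofetal because they are used in the embryo, fall silent in most adult tissues and return in many tumors. HMGA proteins are small chromatin proteins that bind the minor groove of AT-rich DNA and bend it. LIN28 proteins bind the precursors of the microRNA let-7 and block their maturation. IGF2BP proteins bind messenger RNAs, Igf2 among them, and govern their stability, transport and translation. Mature let-7 represses Hmga2, the Lin28 genes and Igf2bp genes through their 3' untranslated regions, so the 3 families are joined in a single circuit.

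The peaks at these genes were thin in reads, as in the list as a whole. The caller's fold enrichment is the ratio of signal at the summit to the background there, with the same constant added to both. Fold and p together gave the number of fragments over each summit. That number ran from 7 to 48 at the 332 peaks, with a median of 13, the same as in the whole list. Fewer than 20 fragments lay over 89.5% of these summits and over 84.2% of all summits. A weak peak missing from the list is thus not shown to be absent from the tissue.

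All 7 genes had a peak in their window, beside 77.9% of the 21000 protein-coding genes compared. A promoter peak was listed at 6 of the 7, beside 45.6% of all genes, and the gene without one was Lin28a. A gene body peak was listed at 6 of the 7, beside 33.2% of all genes, and the gene without one was Lin28b. Longer genes have more room for such peaks, and gene length was not adjusted for. The windows made up 0.0452% of the chromosomes and held 0.271% of the peaks. Hmga2 alone contributed 167 peaks, or 50.3% of the 332. The other 6 genes together had 165 peaks and a pooled 1.62 peaks per 10 kb, whereas the list had 0.449 over the chromosomes. The median of single protein-coding genes, which is not a pooled rate, was 0.562. Without peaks in or at the promoters of other coding genes, 268 of the 332 were left, among them all 167 at Hmga2.

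Ordered by peaks per 10 kb of window, the genes were Hmga2 (7.76), Igf2bp2 (2.69), Igf2bp3 (2.26), Igf2bp1 (1.55), Hmga1 (1.31), Lin28b (0.858) and Lin28a (0.259). The Poisson 95% interval on the number of peaks, which covers counting error only, ran from 6.63 to 9.03 per 10 kb at Hmga2. It treats peaks as independent, although they are clustered. From Igf2bp2 (2.03 to 3.50) downward, neighbors in the order had intervals that overlapped, so the order of neighbors is not resolved. At the lower end, Lin28a had an interval of 0.0534 to 0.757, which holds the median of all genes.

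**Figure D1:**
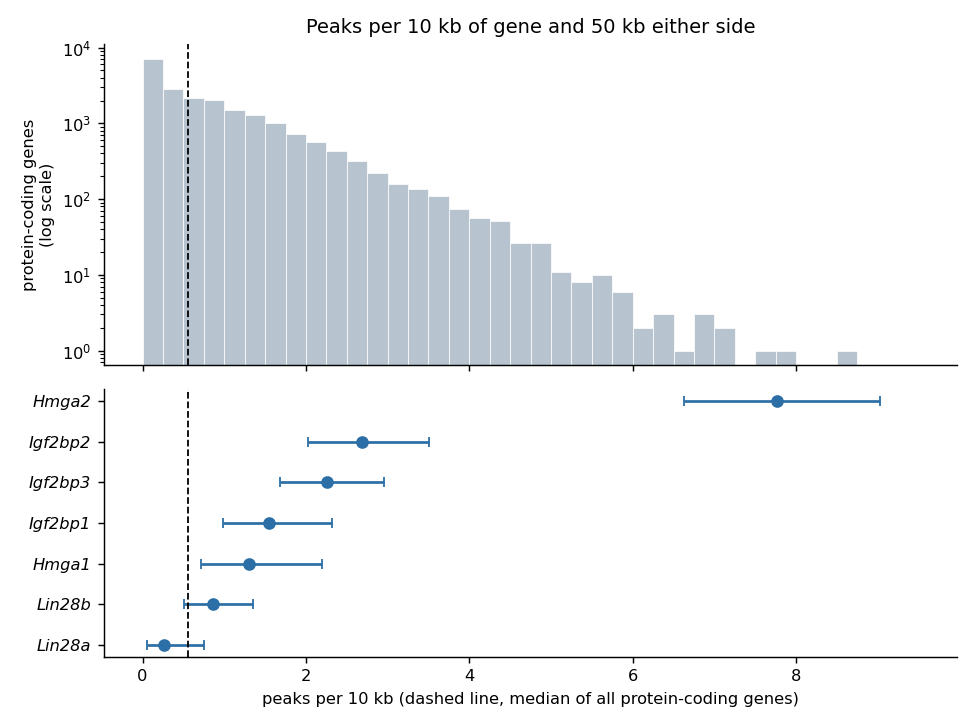
The upper panel is a histogram of peaks per 10 kb (gene span and 50 kb either side) over 21000 protein-coding genes, with a log scale on the vertical axis, and the lower panel gives the 7 genes as points with Poisson 95% intervals. Hmga2, at 7.76 peaks per 10 kb, lies near the upper end of the histogram, and Lin28a, at 0.259, lies below the dashed median of 0.562.

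The classes of peaks also differed among the genes. Of the 332 peaks, 70.2% were in gene bodies (Wilson 95% interval 65.1 to 74.8%), 24.1% in flanks (19.8 to 29.0%) and 5.72% at promoters (3.69 to 8.76%). Over the windows of all protein-coding genes these shares were 26.2%, 62.4% and 11.4%. Without Hmga2, the gene body share of the other 165 peaks was 47.9% (40.4 to 55.5%), the flank share was 43.6% and the promoter share was 8.48%. The intervals treat peaks as independent, although they are clustered. Gene body peaks made up 92.2% of the peaks at Hmga2, 85.5% at Igf2bp2 and 44.2% at Igf2bp3, but 0% at Lin28b. The map of the 7 genes shows these layouts side by side.

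**Figure D2:**
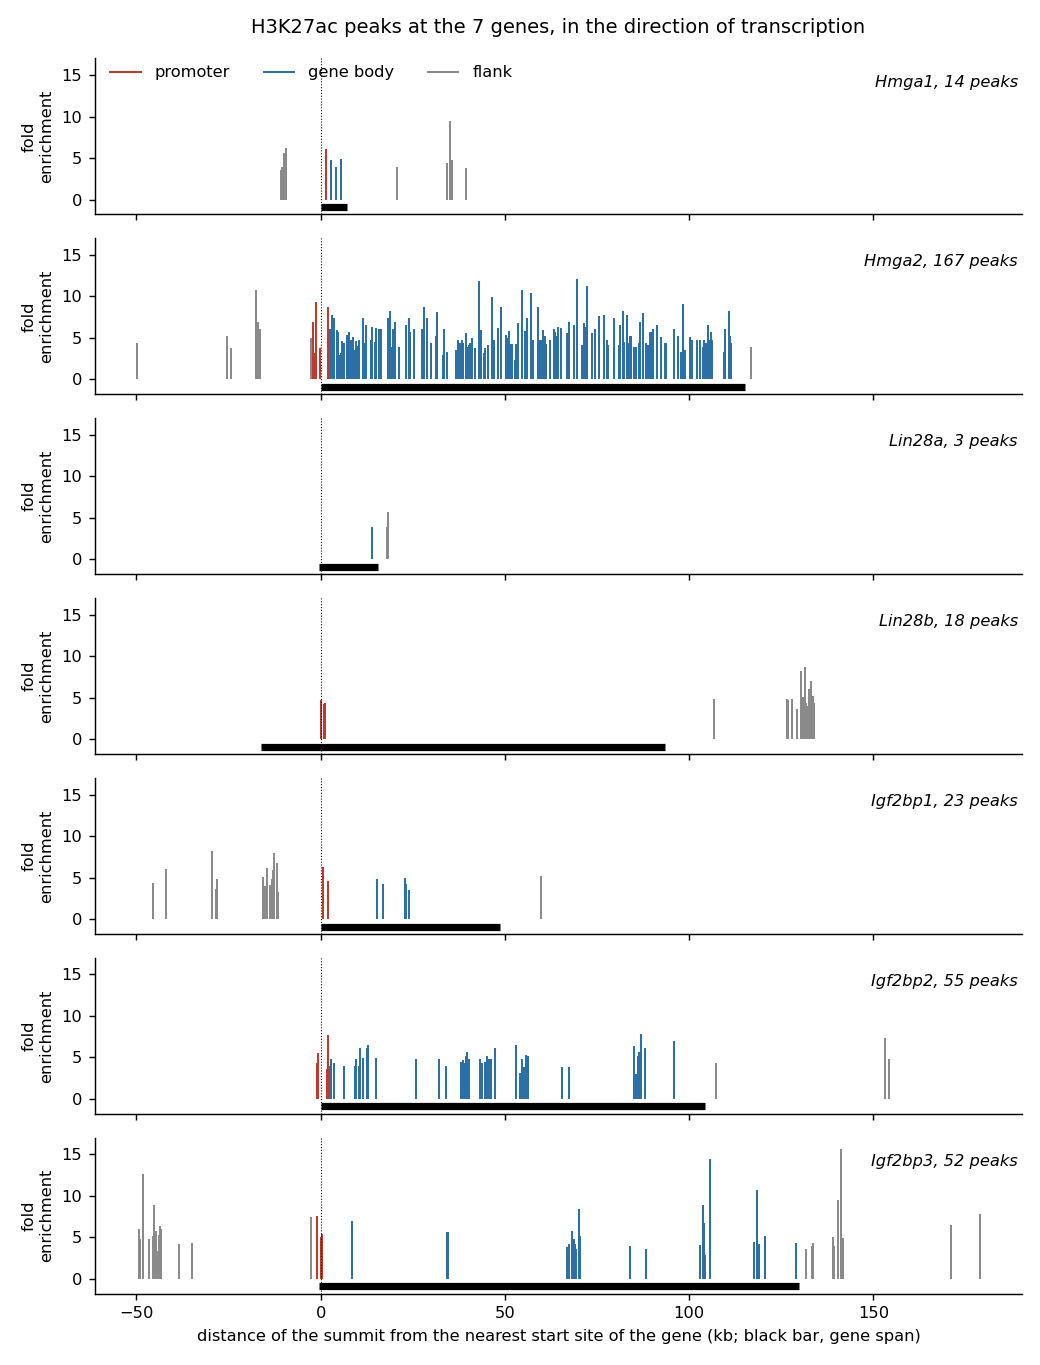
Each panel is a gene, the horizontal axis is the distance of a peak's summit from the nearest start site in kb along the direction of transcription, and each line is a peak whose height is its fold enrichment. The 154 gene body peaks of Hmga2 are spread along most of the gene, whereas the 109.7 kb span of Lin28b (black bar) holds 3 peaks at its promoter and no gene body peak.

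Hmga2 lies on the minus strand of chromosome 10 from 120361268 to 120476469 in mm10, with 5 exons over 115.2 kb. Its window held 5 promoter peaks, 154 gene body peaks and 8 flank peaks. The peaks covered 54.6 kb, or 25.4% of the window. At 7.76 per 10 kb, the window ranked 2 of 21000 genes. Only Prg4 ranked higher, at 8.73 per 10 kb, and 81 of its 102 peaks were flank peaks. Counting gene body peaks alone, Hmga2 ranked 6 of all genes. Among the 4876 genes that span at least 50 kb it ranked 1 in gene body peaks per length, with 13.4 per 10 kb against a median of 0.270. Chromosome 10 as a whole had 0.503 peaks per 10 kb, so the window was 15.4 times denser than its chromosome. No peak of the window overlapped another coding gene or its promoter, but noncoding genes also start inside Hmga2. The microRNA gene Mir763 starts 28.4 kb downstream of the Hmga2 start site and had 5 peaks within 2 kb of its start (best fold 8.67). The long noncoding RNA gene 9230105E05Rik starts 86.9 kb downstream and had 7 (best fold 7.999). All of these lay in intron 3 of Hmga2, which held 13.4 summits per 10 kb, so they need not be promoters of the noncoding genes. They are counted here as gene body peaks of Hmga2.

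The peaks of Hmga2 ran from its promoter along most of its length. Every 5 kb bin from the start site to 110 kb downstream held between 5 and 11 peaks, and the median distance between neighboring summits was 595.5 bp. Intron 3, which takes up 88.0 kb of the gene, held 118 summits (13.4 per 10 kb). Intron 2 held 20 summits (19 per 10 kb) and intron 4 held 14 in 10.4 kb (13.5 per 10 kb). No summit fell in the 3.72 kb of exons. The run stopped at both ends. In the direction of transcription, the last gene body peak reached to 120364798, and 4.96 kb without a peak followed, over the last exon and the end of the gene. The last peak lay 1.43 kb beyond the end of the gene, and the 51.0 kb after it held no peak. Upstream, no summit lay between 5 and 15 kb from the start site, and 3 lay between 15 and 20 kb.

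**Figure D3:**
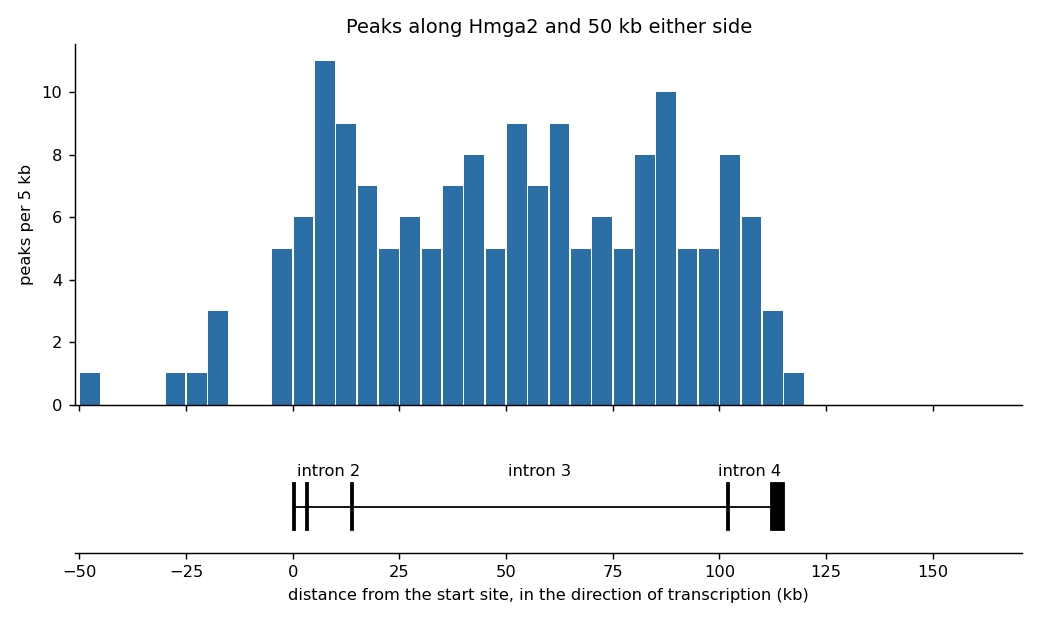
Bars give the number of peak summits in each 5 kb bin along Hmga2 and 50 kb either side, against the distance from the start site in kb, with exons (boxes) and introns (lines) drawn to scale below. Bins inside the gene hold 5 to 11 peaks up to 110 kb, and bins beyond the end of the gene hold 1 peak and then none.

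The strongest peak of Hmga2 was in intron 3, on chromosome 10 from 120405670 to 120407174, 69.5 kb into the gene. It reached a fold of 12.1 on 27 fragments (Poisson 95% interval 17.8 to 39.3). The next was also in intron 3, from 120433419 to 120434062, with a fold of 11.9 and 27 fragments. Outside the gene the strongest was 17.6 kb upstream, from 120493549 to 120494222, with a fold of 10.8. These 3 intervals overlap, so the order of the peaks is not resolved. The median fold at Hmga2, 5.22, equaled that of the whole list. Its peaks were more often wide, since 31.7% of them measured at least 324 bp, the upper quartile of the list.

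The sequences around the summits of the strongest Hmga2 peaks are shown because the gene's peaks are the main feature of these data. They were read from the RefSeq genome, 201 bp centered on the summit, with capitals for any of 10 short motifs searched on both strands. The motifs were the TATA box TATAAA, the box CCAAT and the GC box GGGCGG, which are known as promoter elements. The others were the E-box CAGCTG, the AP-1 motif TGANTCA, the forkhead motif TGTTTAC, the homeodomain motif TAATTA, the TEAD motif GGAATG, the RUNX motif TGTGGT and the ETS motif CCGGAA.
Hmga2 intron 3, fold 12.1, GRCm38.p6 chr10:120406905-120407105, plus strand: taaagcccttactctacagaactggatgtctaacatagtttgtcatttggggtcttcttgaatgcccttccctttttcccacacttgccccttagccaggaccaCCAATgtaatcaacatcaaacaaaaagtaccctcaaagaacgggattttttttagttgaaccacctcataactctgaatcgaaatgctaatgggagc
Hmga2 intron 3, fold 11.9, GRCm38.p6 chr10:120433414-120433614, plus strand: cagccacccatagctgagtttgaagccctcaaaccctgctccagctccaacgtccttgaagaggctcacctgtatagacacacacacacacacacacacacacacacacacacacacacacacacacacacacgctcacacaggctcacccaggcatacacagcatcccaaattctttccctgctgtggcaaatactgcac
The upper window holds a CCAAT and the lower holds none of the motifs. The lower window has a long run of the dinucleotide CA. Such a run of at least 20 bp lay in 16 of the 167 summit windows of Hmga2, or 9.58% (Wilson 95% interval 5.98 to 15.0%), beside 4.20% of all peaks. The interval treats peaks as independent, although they are clustered, and is not a test. When all peaks with such a run were left out, an alternative chosen after seeing the data, Hmga2 kept 151 peaks and ranked 3. When summits in any masked repeat were left out, it kept 133 peaks and also ranked 3.

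Among the 3487 genes with a span between 0.5 and 2 times that of Hmga2, none had more peaks per length. The next 3 were Lrig1, a brake on ERBB receptors (7.56 peaks per 10 kb), Phlpp1, a phosphatase that acts on AKT (7.01), and Bcar3, an adaptor in adhesion signaling (6.84). Their windows were covered to 31.3%, 31.5% and 27.3%, each above the 25.4% at Hmga2.

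Hmga1, the other HMGA gene, is 7.10 kb long and lies on the plus strand of chromosome 17 from 27556574 to 27563672. It had 14 peaks, with 1 at the promoter, 3 in the gene body and 10 in the flanks. The promoter peak lay in intron 1, from 27558072 to 27558174, 1504 bp downstream of a start site. It had a fold of 6.08 and 13 fragments (6.92 to 22.2). Of the flank peaks, 5 stood together between 9.38 and 10.8 kb upstream, with folds of 3.58 to 6.22. The strongest peak of the window, at 9.43, was 35.2 kb downstream inside Nudt3, a phosphatase of inositol pyrophosphates, as were 3 other flank peaks. With 1.31 peaks per 10 kb the window reached the percentile 76.7 of all genes.

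The LIN28 genes had the fewest peaks per length in windows of 50 kb either side. With 100 kb either side, Lin28b reached the percentile 77.2 and passed Hmga1 at 60.5. Lin28a, on the minus strand of chromosome 4 from 134003330 to 134019196, had 3 peaks. The only peak in the gene was in exon 4, from 134004828 to 134004957, with a fold of 3.93 and 8 fragments (3.45 to 15.8). The other 2 were flank peaks at the start of Dhdds, an enzyme of dolichol synthesis, with folds of 5.65 and 3.87. The summit nearest to the Lin28a start site was 13973 bp away, and upstream of the gene no peak was listed for 83.5 kb.

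Lin28b lies on the minus strand of chromosome 10 from 45376617 to 45486314, a span that includes predicted starts, with the curated start site 16.1 kb inside it. Unlike Lin28a it had 3 promoter peaks, at 47, 887 and 1095 bp downstream of its start site. The strongest of them, from 45470099 to 45470195 in exon 1, had a fold of 4.74 and 13 fragments (6.92 to 22.2), and the others had folds of 4.23 and 4.36. No other peak lay in the gene. The next summit downstream was 106.9 kb from the start site, beyond the end of the gene. All 15 flank peaks overlapped Bves, a gene of the Popeye family used in heart and skeletal muscle, with folds of 3.57 to 8.67. Without peaks in or at the promoters of other coding genes, Lin28b was left with its 3 promoter peaks and Lin28a with 1 peak.

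The promoters of Hmga2, Lin28b and Igf2bp2 are shown from 250 bp before to 50 bp after the start site, as RefSeq gives them, because the first has peaks on all sides, the next has the peak closest to a start site, and the last has the most CpG among the 6 genes with a promoter in the table used. Capitals mark the same motifs.
Hmga2 promoter, GRCm38.p6 chr10:120476420-120476719, minus strand: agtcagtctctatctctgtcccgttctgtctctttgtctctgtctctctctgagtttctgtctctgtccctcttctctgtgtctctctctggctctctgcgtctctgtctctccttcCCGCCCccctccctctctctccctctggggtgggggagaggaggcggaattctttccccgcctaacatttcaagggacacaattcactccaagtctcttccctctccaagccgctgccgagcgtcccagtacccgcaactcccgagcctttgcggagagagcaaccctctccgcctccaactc
Lin28b promoter, GRCm38.p6 chr10:45470152-45470451, minus strand: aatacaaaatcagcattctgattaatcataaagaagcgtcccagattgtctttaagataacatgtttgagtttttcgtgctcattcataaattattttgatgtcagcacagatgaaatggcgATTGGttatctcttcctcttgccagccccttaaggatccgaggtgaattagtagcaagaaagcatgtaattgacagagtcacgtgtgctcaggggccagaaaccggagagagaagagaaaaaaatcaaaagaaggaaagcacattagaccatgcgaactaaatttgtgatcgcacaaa
Igf2bp2 promoter, GRCm38.p6 chr16:22163250-22163549, minus strand: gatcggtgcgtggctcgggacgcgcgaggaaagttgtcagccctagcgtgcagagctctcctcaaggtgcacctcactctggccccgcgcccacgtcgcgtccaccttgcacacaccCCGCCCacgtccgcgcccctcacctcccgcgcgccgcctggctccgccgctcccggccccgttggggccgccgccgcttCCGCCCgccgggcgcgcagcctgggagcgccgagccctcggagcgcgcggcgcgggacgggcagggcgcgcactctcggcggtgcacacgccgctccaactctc
A peak overlapped 47 bases of the Hmga2 window and 44 bases of the Lin28b window, and none overlapped that of Igf2bp2. The Lin28b promoter had 39.0% GC and 8 CpG, below the medians of 57% and 14 over 20488 promoters of coding genes. The Igf2bp2 promoter had 76.7% GC and 47 CpG, at the percentile 98.1 of CpG number. Hmga2 had 57.7% GC and 12 CpG, close to the medians. GGGCGG was found once at Hmga2, in 2 places at Igf2bp2 and not at Lin28b, and it was held by 47.6% of all promoters. CCAAT was found at Lin28b and is held by 38.4% of all promoters.

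Igf2bp1, on the minus strand of chromosome 11 from 95957163 to 96005944, had 23 peaks, 1.55 per 10 kb. Of its 2 promoter peaks the stronger was in intron 1, 541 bp downstream of the start site, with a fold of 6.30 and 16 fragments (9.15 to 25.98). All 5 gene body peaks were in intron 2, with folds of 3.47 to 4.99. Most of the peaks, 15 of 23, lay upstream of the gene. Among these, 10 formed a row between 11.5 and 15.6 kb upstream, in sequence that overlaps no other coding gene. Their folds ran from 3.28 to 7.999. The others were at Snf8, a subunit of the ESCRT-II complex (fold up to 8.24), and in Ube2z, a ubiquitin-conjugating enzyme (up to 6.08).

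Igf2bp2, on the minus strand of chromosome 16 from 22059009 to 22163299, was next to Hmga2 in its share of gene body peaks, and in density when all peaks were counted. With a −log10 q limit of 5 it fell to the percentile 79.6, below Igf2bp3 at 94.9. Among the strongest 25% of peaks it stood at 61.9, below Igf2bp3 (91.9) and Igf2bp1 (68.4). By the share of the window covered it stood at 85.6 and Igf2bp3 at 92.9. With all peaks it had 55 peaks, 5 at the promoter, 47 in the gene body and 3 in the flank. Its window reached the percentile 95.4 of all genes, and its gene body peaks, 4.51 per 10 kb, ranked 120 of the 4876 genes that span at least 50 kb. Intron 2, of 72.1 kb, held 40 summits. The promoter peaks lay on both sides of the start site, with summits 609, 818 and 1031 bp upstream and 1826 and 2011 bp downstream. Their folds ran from 3.62 to 7.76. The strongest peak of the gene body was in intron 9, from 22076397 to 22076526, with a fold of 7.80 and 17 fragments (9.90 to 27.2). The peaks were narrow, with a median width of 120 bp, and 27.3% of them exceeded the list's median fold.

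Igf2bp3, on the minus strand of chromosome 6 from 49085218 to 49215469, had 52 peaks, but many of them are shared with its neighbors. Of its 3 promoter peaks, those at 92 and 367 bp downstream of the start site were in exon 1, with folds of 5.05 and 5.35. The peak 1036 bp upstream had a fold of 7.58. Of the 23 gene body peaks, 12 also lay in Malsu1, a gene for assembly of the mitochondrial ribosome that overlaps Igf2bp3. Among them was the strongest peak inside any of the 7 genes, in intron 6 from 49108293 to 49110226, with a fold of 14.5 and 48 fragments (35.4 to 63.6). The highest fold of all 332 peaks, 15.6 with 36 fragments, was a flank peak at the Malsu1 promoter, from 49073256 to 49073705. A further 14 flank peaks overlapped Tra2a, a splicing regulator, with folds up to 12.7. Without peaks in or at the promoters of other coding genes, Igf2bp3 kept 16 of its 52 peaks, whereas Igf2bp2 kept 53 of 55 and Igf2bp1 kept 18 of 23. H3K27ac peaks do not say which of the overlapping genes they belong to.

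Summit windows of the IGF2BP genes are shown for the strongest gene body peak of Igf2bp2, the strongest of Igf2bp3, and the strongest of the row upstream of Igf2bp1.
Igf2bp2 intron 9, fold 7.80, GRCm38.p6 chr16:22076369-22076569, plus strand: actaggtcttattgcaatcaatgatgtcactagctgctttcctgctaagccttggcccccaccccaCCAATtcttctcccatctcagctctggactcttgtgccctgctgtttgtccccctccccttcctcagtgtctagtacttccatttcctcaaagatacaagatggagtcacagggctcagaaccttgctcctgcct
Igf2bp3 intron 6, fold 14.5, GRCm38.p6 chr6:49109120-49109320, plus strand: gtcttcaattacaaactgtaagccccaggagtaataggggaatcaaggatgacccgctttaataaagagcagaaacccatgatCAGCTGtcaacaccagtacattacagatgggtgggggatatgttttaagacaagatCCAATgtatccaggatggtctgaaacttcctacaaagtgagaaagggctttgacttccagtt
Upstream of Igf2bp1, fold 7.999, GRCm38.p6 chr11:96018394-96018594, plus strand: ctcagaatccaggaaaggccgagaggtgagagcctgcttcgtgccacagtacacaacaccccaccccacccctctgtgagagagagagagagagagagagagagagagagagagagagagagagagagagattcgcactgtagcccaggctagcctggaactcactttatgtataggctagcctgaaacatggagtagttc
CCAAT is in the windows of Igf2bp2 and Igf2bp3, and the E-box CAGCTG is in that of Igf2bp3. The window upstream of Igf2bp1 has a long run of the dinucleotide GA and none of the motifs. Summits in masked repeats made up 43.5% at Igf2bp1 (Wilson 95% interval 25.6 to 63.2%), 32.7% at Igf2bp3 (21.5 to 46.2%) and 19.3% in the whole list. Without them, Igf2bp1 kept 13 of 23 peaks and Igf2bp3 kept 35 of 52. The intervals treat peaks as independent, although they are clustered.

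Across all summit windows of the 7 genes, the motifs were about as common as in the list. CCAAT was in 20.8% of the windows (16.8 to 25.5%) and in 22.3% of all peaks. The E-box was in 9.64% (6.91 to 13.3%) beside 10.0%, and the RUNX motif in 15.1% (11.6 to 19.3%) beside 15.9%. The forkhead motif was in 3.61% (2.08 to 6.21%) beside 3.27%. The interval of the TEAD motif, 5.40 to 11.2% around 7.83%, lay just below its 11.4% in the list, and that of each other motif held the value of the list. These peaks of a single list share neighborhoods and are not independent. The median GC content of the windows was 45.5%, beside 45.8% in the list.

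Fold enrichment spanned a wide range within genes, from 2.37 to 12.1 at Hmga2, while the medians of the genes were at or below that of the list. Median fold was 5.22 at Hmga2, 5.11 at Igf2bp3, 4.79 at both Igf2bp1 and Igf2bp2, 4.76 at Lin28b, 4.58 at Hmga1 and 3.93 at Lin28a. The list's median was 5.22. At promoters, the best fold was 9.36 at Hmga2, 7.76 at Igf2bp2, 7.58 at Igf2bp3, 6.30 at Igf2bp1, 6.08 at Hmga1 and 4.74 at Lin28b. Among the 9569 genes with a promoter peak, whose median best fold was 7.24, these lay at the percentiles 74.3, 56.7, 55.3, 35.8, 30.6 and 9.82. So at promoters, by overlap of the peak, 3 of the genes were above the median gene and 3 were below it. The Igf2bp2 value came from a peak whose summit was 2011 bp from the start site. Its best promoter peak with a summit within 2 kb had a fold of 5.55.

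**Figure D4:**
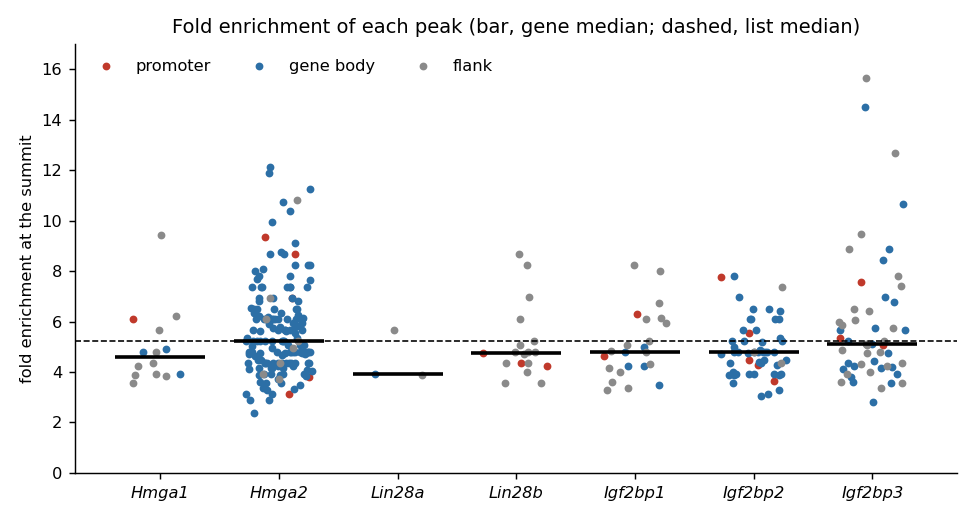
Each point is a peak, placed by gene and by its fold enrichment at the summit, with points spread sideways only for legibility, a bar for the gene's median and a dashed line for the list's median of 5.22. Most peaks of each gene lie between folds of 3 and 9, and the highest are those of Igf2bp3 at 15.6 and 14.5.

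Super-enhancers were sought in the study with the ROSE algorithm. Clusters were built here with its stitching distance and with peaks within 1 kb of a start site left out, but from this list alone and not from the study's own peak sets. They were ranked by the sum of fold times width and not by read coverage, so they are not the study's super-enhancers. Of 20840 clusters, 864 lay above the point where the slope of the ranked scores passes the limit. The cluster over Hmga2 held 154 peaks in 119.6 kb and ranked 10. It covered the whole gene. A cluster of 16 peaks over the end of Igf2bp3 ranked 739, and 71.0% of its length lay in that gene. All gene body peaks in this cluster also lay in Malsu1. These 2 of the 7 genes overlapped a cluster above the limit, beside 4.45% of all genes. The dense cluster at Hmga2 was known when the genes were chosen, and gene length was not adjusted for. The longest cluster at Igf2bp2, with 43 peaks in 68.4 kb, ranked 1330 and lay below the limit. At Hmga1 the best cluster ranked 7351, at Igf2bp1 9723, at Lin28a 18187 and at Lin28b 19155.

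A feature that the choice of peaks did not use was the let-7 seed match in the messenger RNA. Mature let-7 RNAs share the seed, bases 2 to 8, which is in capitals here as RefSeq gives the sequences.
mmu-let-7a-5p: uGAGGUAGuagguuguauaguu
mmu-let-7d-5p: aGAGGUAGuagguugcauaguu
mmu-miR-98-5p: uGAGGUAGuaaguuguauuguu
The reverse complement of this seed, CTACCTC, was searched in the 3' untranslated region of 1 reference transcript per gene, a search added after seeing the data. It was present in all 7 genes, which held 17 matches in all, and in 7.92% of the 19534 coding genes with such a region. Hmga2, Lin28b and Igf2bp1 had 4 matches each, Lin28a had 2, and Hmga1, Igf2bp2 and Igf2bp3 had 1 each. Only 8 of the 19534 genes had at least 4. Longer regions have more room for a match, and those of the 7 genes ran from 1181 to 6337 bp, against a median of 777.5 bp. Per kb, the 7 genes had from 0.471 (Igf2bp3) to 1.34 (Hmga2) matches, against 0.0711 over all regions pooled. These genes are known let-7 targets, so the matches describe them and were not a discovery of the search. The match nearest the stop codon in each gene is shown in its RNA's direction as DNA, with the 7 bases in capitals.
Hmga1, chr17:27563275-27563299, plus strand: tctcctctgttcacaaaCTACCTCt
Hmga2, chr10:120364224-120364248, minus strand: gcgccgacattcaatttCTACCTCa
Lin28a, chr4:134005189-134005213, minus strand: gtgcacagcctgttgaaCTACCTCa
Lin28b, chr10:45381022-45381046, minus strand: tcacccgggcgggaagtCTACCTCa
Igf2bp1, chr11:95961778-95961802, minus strand: gtgctgtgcgaagtaaaCTACCTCa
Igf2bp2, chr16:22059473-22059497, minus strand: aaacacacaaataaaagCTACCTCa
Igf2bp3, chr6:49086787-49086811, minus strand: cgtgcatttttactcaaCTACCTCa
In Hmga2 it begins at base 21 of the untranslated region, counted from 1, and in Lin28b at base 36. A seed match is a run of letters, and binding by let-7 was not measured here.

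The other genes of the circuit were taken from fixed lists. Of 11 genes for its processing and decay, 9 had a promoter peak and 11 had a peak in the window, beside 45.6% and 77.9% of all genes. Drosha, which cuts the primary transcript, had 3 promoter peaks (best fold 6.67), and Dicer1, which cuts the hairpin, had 3 (best fold 10.4). Tut4 and Tut7, which tail the precursor when LIN28 is bound, had 8 and 4. Dis3l2, the nuclease that degrades the tailed precursor, had 2. Ago2, which holds the mature RNA, had 64 peaks in its window and a density at the percentile 98.1. No promoter peak was listed at Ago1 or Trim71.

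Of the 12 let-7 genes themselves, 8 had a peak within 2 kb of the start of the hairpin and 10 had a peak in the window, beside 45.6% and 77.9% of protein-coding genes. The windows of Mirlet7b and Mirlet7c-2, which lie together on chromosome 15, held 49 peaks each and share most of their length. Those of Mirlet7a-1, Mirlet7d and Mirlet7f-1, all on chromosome 13, held 18 each, with the same best fold of 16.8. Hairpins that lie together are thus not separate counts. Mirlet7e had 41. The 2 without any peak, Mirlet7f-2 and Mir98, lie together on chromosome X. Hairpins are cut from longer transcripts, so a peak near a hairpin need not be its promoter.

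Of 15 other let-7 targets, 11 had a promoter peak and 14 a peak in the window, beside 45.6% and 77.9% of all genes. Cdk6, a cell cycle kinase, had 102 peaks in its window and Igf1r, the receptor for IGF2, had 67. No promoter peak was listed at Arid3b, Mycn, Nr6a1 or Ccnd2, and Ccnd2 had no peak in its window. Of 5 genes whose RNAs are bound by IGF2BP proteins, 3 had a promoter peak and 4 a peak in the window, beside the same shares. Cd44 had 108 peaks, Actb had 21 and Myc had 11. Igf2 had none and H19 had 1, the RNA that gave the family its name being the one without a peak.

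Peaks were also counted at marker genes of several cell types. The paper reports closely similar H3K27ac in MCP and TCP tumors, so these counts cannot check the labelled origin. Of 8 myogenic markers, 1 had a promoter peak, Pax3, whose locus carries the fusion allele in these mice. Myod1, Myf5, Des, Cdh15 and Chrna1 had 7 to 29 flank peaks and none at the promoter, and Myog and Pax7 had no peak in the window, which left 6 of the 8 with one. A promoter peak was listed at 0 of the 6 endothelial markers, but 5 of them had a peak in the window and 4 had gene body peaks, with 14 at Tek, 4 each at Pecam1 and Erg, and 3 at Cdh5. The highest fold in the Cdh5 window was 17.2. Gene body peaks were listed at 1 of the 8 myogenic markers, Pax3. Among immune markers 1 of 6 had a promoter peak, Cd68 (fold 5.91), and 5 had a peak in the window. Among fibroblast markers 1 of 4 had a promoter peak, Pdgfra (fold 5.35), and 3 had a peak in the window. Over all protein-coding genes 45.6% had a promoter peak, 33.2% a gene body peak and 77.9% a peak in the window. Their part in the results at the 7 genes was not tested.

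Few peaks lay at the limit of 50 kb that set the windows. In the outermost 5 kb inside the windows lay 11 peaks, 6 of them upstream of Igf2bp3, and in the 5 kb outside lay 5. The farthest Hmga2 peak, 49.9 kb upstream, had a fold of 4.36.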

How the data were processed

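H3K27ac CUT&RUN peaks of 1 MCP tumor library were analyzed. The members, lists and motifs were chosen with earlier results of these data known. Per the study's methods, the authors aligned reads to mm10 and called peaks against IgG with MACS1.4, whereas the submitters' processing notes name BWA, SAMtools and MACS2, and the list is in the format of MACS2. Which settings made the list is not given in the sources used here. The deposited list gives, per peak, a fold enrichment and the −log10 of p and of q, all as the authors' caller wrote them. Fold was read as the ratio of signal at the summit to the background there, with 1 added to both. It is thus lower than the plain ratio. At 47.5% of all peaks the solved background was the lowest of the list. The largest q in the deposited list was 0.0471.

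Gene spans and 31601 start sites of curated transcripts came from RefSeq (GRCm38.p6, the same build as mm10). A peak was assigned by at least 1 bp of overlap, and the symbols of all list genes matched. No per-sample columns were left out. Because the list states no depth, fragments over each summit were solved from fold and p with 1 scale (0.8845), for which a whole number gave the −log10 p within 0.01 at 99.9992% of the peaks, against 1.8% of a subset of peaks with a scale 3% off. Of the 332 peaks, 327 had 1 solution, and the closest was used for the others. Fragments lack molecular identifiers, so intervals cover counting error only. The numbering of peaks had 0 gaps in the 7 windows. Named genes were the 7 members, genes with a start site in their windows, list genes, and up to 3 neighbors of Hmga2 on each side in density among genes of like span. Prg4, Nudt3 and Ube2z fall outside this rule and were named after their values were seen. Percentiles rank a gene among 21000 protein-coding genes, which are not replicates. Alternatives were stricter peaks, other promoter and flank widths, other start sites, other density scores and other stitching. Python 3.11.15 scripts (numpy, pandas, scipy) were checked on simulated data.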

Additional observations from a re-analysis of the deposited data

How the results depend on the processing

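No paired analysis was possible because the list came from 1 library and no test was run. With a −log10 q limit of 5, the list kept 149 of the 332 peaks, and keeping the strongest 25% of the list left 67. The promoter share was 8.96% among the strongest 25%, 3.01% with promoters of 1 kb, 9.64% with 5 kb and 12.0% with GENCODE start sites. The gene body share was 62.7%, 63.9%, 87.3% and 60.5% among the strongest 25%, with GENCODE start sites, and with flanks of 10 kb and 100 kb, and the flank share was 5.62% and 34.5% with those flanks. The percentile of Hmga2 was 99.8619 among the strongest 25%, 99.9619 by the share covered, 99.8381 by summed fold times width and 99.8975 within its chromosome. Its cluster ranked 4 when stitched at 5 kb, 26 at 25 kb, and 4 when scored by the number of peaks. The cause of these shifts was not tested.

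A promoter peak was left at 5 of the 7 genes at a −log10 q of at least 5, where Lin28b had none, and at 4 among the strongest 25%, where Hmga1 had none either. The share of all genes that kept a promoter peak under these limits was not computed, so the counts cannot be set against it. Within 1 kb it was left at 5, without Hmga1, beside 43.5% of all genes. Percentiles of the other genes ranged from 61.9 to 97.5 at Igf2bp2, from 85.9 to 94.9 at Igf2bp3 and from 0 to 61.6 at Lin28a. They ranged from 59.1 to 85.9 at Hmga1 and from 63.6 to 82.1 at Igf2bp1. Percentiles of Lin28b ranged from 41.9 to 77.2. Both repeat alternatives were chosen after seeing the data. With a median of 13 fragments per summit, weak peaks cannot be ranked, and the spread between tumors is unknown.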
